A study of Saccharomyces cerevisiae with 6 samples.

Results

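The genes described here encode the machinery that brings proteins into the endoplasmic reticulum (ER) of *Saccharomyces cerevisiae*, folds and glycosylates them there and removes those that fail to fold. They were chosen by function, as 39 standard gene names that were matched to the systematic ORF names of the array table. All 39 of the 39 were found among its 6377 rows, all had a value on each of the 6 arrays, and none was lost to a filter on low values.

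Each array compared cDNA of dox-treated cells with cDNA of untreated cells of the same strain, *TETp-HSC82 hsp82Δ arg4Δ lys5Δ car2Δ::URA3* in the R1158 background. In this strain *HSC82* is the only Hsp90 gene left and is driven by a Tet-off promoter, so that doxycycline (dox, 5 μg/ml during 11 h) lowers Hsp90. Cells were in log phase, arginine and lysine were supplied in the medium, light or isotope-labeled, and by the labels the dox-treated cells were light-labeled in biological replicate 1 and heavy-labeled in biological replicate 2, taken here to be cultures 1 and 2. Every deletion was carried by treated and untreated cells alike, and no array with dox on a strain without the Tet-off promoter was analysed here.

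There were 2 cultures with 3 technical arrays each, so the culture was the replicate and every test below rests on n = 2. The treated sample carried the same dye on all arrays, and effects of dox itself, of the dye and of low Hsp90 on a single gene cannot be told apart. *HSC82* was lower on all 6 arrays (mean log2 ratio −5.99, standard error 0.16, adjusted p = 0.000658 from limma), in the direction of the labels. All values are given as log2 ratios (dox-treated over untreated cells), centered near 0 by the LOWESS normalization of the authors. A shift shared by most mRNAs would therefore not be visible, and less mRNA per cell and fewer cells with the mRNA cannot be told apart.

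Proteins bound for the secretory pathway enter the ER through the Sec61 channel, either while they are translated or afterwards with the help of the Sec63 complex. In the lumen they meet the Hsp70 Kar2 and its cofactors, the protein disulfide isomerases and the oligosaccharyltransferase, while misfolded proteins are returned to the cytosol and ubiquitinated (ER-associated degradation, ERAD). When unfolded proteins accumulate, the sensor Ire1 splices *HAC1* mRNA, and the Hac1 protein made from it activates many ER genes. Unlike animal cells, this yeast has no Hsp90 inside the ER, and its Hsp90 acts in the cytosol and nucleus.

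Most of these genes were slightly higher in dox-treated cells, and few changed by much. Culture 1 had a median log2 ratio of 0.14 over the 39 genes and culture 2 one of 0.19, against −0.02 and 0.02 for all 6290 genes tested. The methods of the study name a fold and a p threshold but no test. These were applied here as a change above 1.5-fold (0.58 on the log2 scale) with an unadjusted p below 0.05 in limma over the culture means, and 2 of the 39 genes changed. *SIL1* rose and *HAC1* fell. This is 5.13% of the members, below the 10.5% of all genes tested that met the same criterion, 5.74% higher and 4.74% lower. No member passed the Benjamini-Hochberg adjusted threshold over all genes, which 337 of the 6290 genes tested passed. At any fold, 15 members had an unadjusted p below 0.05.

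The differences were mostly small and in one direction. Of those 15 genes, 13 were higher and 2 lower, that is 33.3% and 5.13% of the members. Among all genes tested 29.1% had such a p, 14.0% higher and 15.2% lower. Counted by sign alone, 19 members (48.7%) were higher on all 6 arrays and 4 (10.3%) were lower on all 6, where 23.6% and 23.4% of all genes with 6 values were. Both cultures were above 0 for 25 members (64.1%, against 37.0% of all genes), below 0 for 8 (20.5%, against 37.0%), and of opposite sign for 6 (15.4%, against 25.9%). The members were picked with earlier results of these arrays known and are not independent of each other, so these shares are a description. With array 1 of culture 2 left out, 9 members instead of 13 were higher with an unadjusted p below 0.05.

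**Figure D1:**
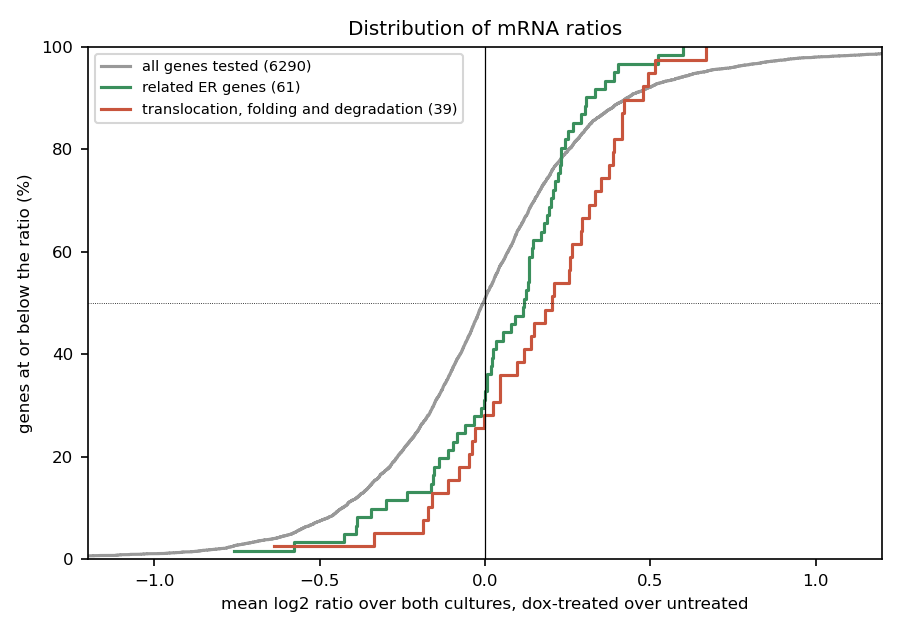
Cumulative share of genes (y axis, percent) at or below a given mean log2 ratio of dox-treated over untreated cells (x axis, mean of both cultures). The lines cross 50% at the medians, 0.20 for the 39 members, 0.12 for the 61 related genes and −0.006 for all 6290 genes. The line labeled related ER genes includes genes whose products act in the cytosol.

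The roles did not move alike. By the mean over both cultures, the median log2 ratio was highest for the 8 genes of disulfide and glycoprotein folding (0.34; 0.35 in culture 1 and 0.25 in culture 2), the 5 genes of the lumenal Hsp70 system (0.33; 0.48 and 0.16) and the 6 oligosaccharyltransferase subunits (0.32; 0.37 and 0.28). The 9 ERAD genes had a median of 0.18, with 0.11 in culture 1 and 0.27 in culture 2. The 9 translocon genes were close to all genes in culture 1 (−0.02) and higher in culture 2 (0.18), with a median of 0.04. The order of the roles thus differed between the cultures, and with n = 2 no difference between roles was tested.

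**Figure D2:**
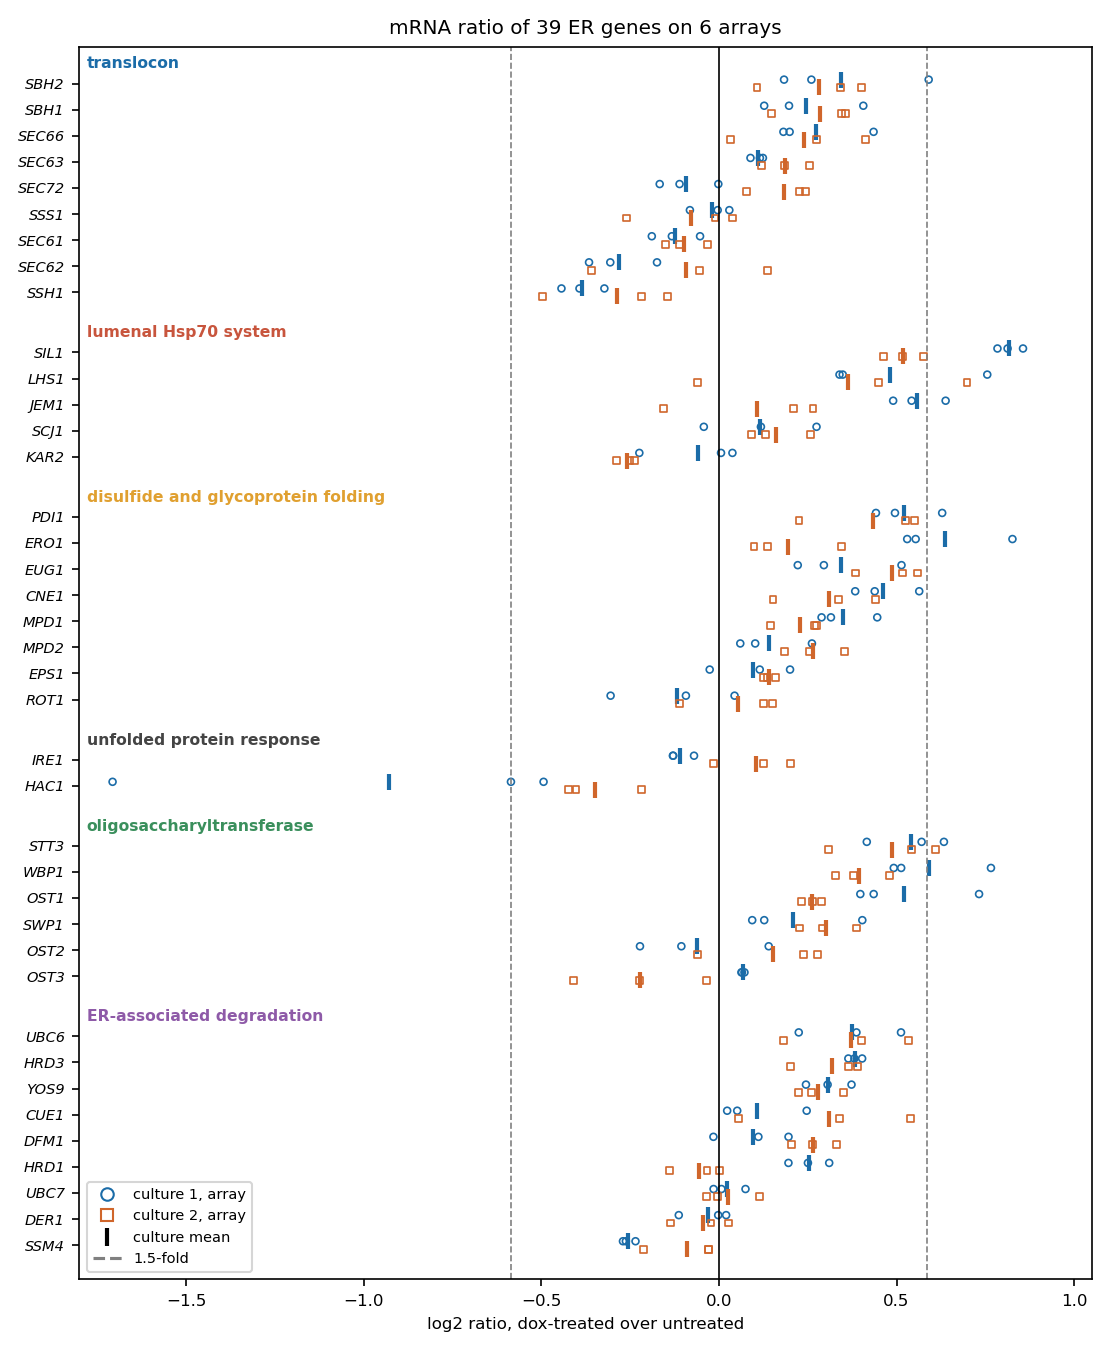
Log2 ratio of dox-treated over untreated cells (x axis) for each of the 39 genes, grouped by role and ordered within a role by the mean of both cultures. Open circles are the 3 arrays of culture 1, open squares the 3 arrays of culture 2, vertical ticks the culture means and dashed lines a change of 1.5-fold. *SIL1* lies above 0.4 on every array, and *HAC1* has a single array near −1.7.

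Among the translocon genes, the 2 channel proteins were not higher. *SEC61*, which encodes the channel itself, had log2 ratios of −0.13, −0.05 and −0.19 on the arrays of culture 1 and −0.15, −0.03 and −0.11 on those of culture 2. All 6 values were below 0, but the mean of −0.11 was about the size of its standard error of 0.12. *SSH1*, which encodes the channel of a second, cotranslational translocon, had −0.39, −0.32 and −0.44 in culture 1 and −0.50, −0.15 and −0.22 in culture 2 (mean −0.34, adjusted p = 0.138 from limma). It was the lowest translocon gene and one of the 2 members that were lower with an unadjusted p below 0.05, the other being *HAC1*.

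The β-subunits of these channels went the other way. *SBH2*, the partner of *SSH1*, had 0.18, 0.26 and 0.59 in culture 1 and 0.34, 0.11 and 0.40 in culture 2 (mean 0.31, adjusted p = 0.153), and *SBH1*, the partner of *SEC61*, had culture means of 0.24 and 0.28. Both were higher on all 6 arrays, so each channel gene and its β-subunit gene had opposite signs. A further row of the table, YER087C-A, is listed in RefSeq as a synonym of *SBH1* and lay between 0.07 and 0.49 on the 6 arrays. *SSS1*, the small subunit shared by the channels, had culture means of −0.02 and −0.08. Paralogs such as *SEC61* and *SSH1*, *SBH1* and *SBH2* or *PDI1* and *EUG1* could share signal by cross-hybridization, and this was not tested.

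The Sec63 complex, which serves posttranslational import, was divided. *SEC66* (0.27 in culture 1 and 0.24 in culture 2) and *SEC63* (0.11 and 0.19), whose J-domain recruits Kar2, were higher on all 6 arrays. *SEC62* was lower in both culture means (−0.28 and −0.09), and *SEC72* had −0.09 in culture 1 and 0.18 in culture 2. None of the 4 had an unadjusted p below 0.05.

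In the lumenal Hsp70 system 1 of 5 genes, the cofactor gene *SIL1*, met the criterion. *SIL1*, a nucleotide exchange factor of Kar2, had log2 ratios of 0.81, 0.78 and 0.86 in culture 1 and 0.46, 0.52 and 0.58 in culture 2. Its mean of 0.67 (standard error 0.13) is a rise of 1.59-fold, the largest of the 39 genes and number 303 from the top among the 6290 genes tested. The adjusted p was 0.0541 (limma with Benjamini-Hochberg adjustment), just above the threshold. It ran from 0.000177 to 0.108 over 13 alternatives of normalization, averaging, replicate unit and arrays left out, in all of which *SIL1* met the unadjusted criterion. The lowest value came from the fit that took the 6 technical arrays as replicates, although the culture is the replicate. The highest came from median centering of the arrays. In culture 2 alone, where no test is possible, its mean of 0.52 was below 1.5-fold. The cultures did not overlap, as the lowest array of culture 1 was above the highest of culture 2. Such a separation was not particular to *SIL1*, as *KAR2*, *OST1*, *ERO1* and *HRD1*, among other members, had it too. Its share over all genes was not counted. In limma over the technical arrays, 22.3% of all genes compared differed between the cultures with an adjusted p below 0.05.

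*KAR2*, the Hsp70 of the ER, did not follow *SIL1*. Its log2 ratios were 0.04, 0.01 and −0.22 in culture 1 and −0.29, −0.24 and −0.25 in culture 2, and averaged −0.16 (standard error 0.12, adjusted p = 0.437). It was thus near 0 in culture 1 and lower on each array of culture 2, and a change was not detectable with 2 cultures. *LHS1*, the other exchange factor, had culture means of 0.48 and 0.36 (adjusted p = 0.0917) and was above 0 on all arrays but the second of culture 2 (−0.06).

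Of the J-domain proteins of the lumen, *SCJ1* had small culture means of 0.12 and 0.16. *JEM1*, which is also needed for nuclear fusion, had 0.54, 0.49 and 0.64 in culture 1 but 0.21, −0.16 and 0.26 in culture 2. Its mean of 0.33 therefore came mainly from culture 1.

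Of the 8 genes of disulfide and glycoprotein folding, 7 were higher in both cultures (87.5%, against 37.0% of all genes). This was the highest share of the roles, followed by 80% of the small lumenal Hsp70 group. *PDI1*, the essential protein disulfide isomerase, had 0.44, 0.63 and 0.50 in culture 1 and 0.23, 0.52 and 0.55 in culture 2 (mean 0.48 with a standard error of 0.12, adjusted p = 0.0744). The arrays of both cultures overlapped, and the mean stayed below 1.5-fold. *EUG1*, a nonessential relative of *PDI1*, had culture means of 0.34 and 0.49 (adjusted p = 0.0953), the only one of these genes with an unadjusted p below 0.05 that was higher in culture 2.

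The oxidase that hands disulfides to Pdi1 depended more on the culture. *ERO1* had 0.53, 0.55 and 0.83 in culture 1 and 0.35, 0.10 and 0.14 in culture 2, and the arrays of the cultures did not overlap (mean 0.42, adjusted p = 0.148). Among the other members of the disulfide isomerase family, *MPD1* had culture means of 0.35 and 0.23, *MPD2* 0.14 and 0.26, and *EPS1*, which is membrane bound, 0.10 and 0.14. *MPD1* and *MPD2* were higher on all 6 arrays, but none of the 3 had an unadjusted p below 0.05.

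*CNE1*, the yeast calnexin, was higher on all 6 arrays, with culture means of 0.46 and 0.31 (adjusted p = 0.112). *ROT1*, an essential chaperone of the ER membrane, was the lowest of this group, with −0.09, 0.04 and −0.31 in culture 1 and −0.11, 0.15 and 0.12 in culture 2. Its values lay on either side of 0 in both cultures.

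The genes that govern the unfolded protein response were not higher. *HAC1* had log2 ratios of −0.59, −0.49 and −1.71 in culture 1 and −0.40, −0.22 and −0.42 in culture 2. It was lower on all 6 arrays and averaged −0.64 (standard error 0.17, adjusted p = 0.0852), which is 1.56-fold lower than in untreated cells. The size of this fall rested on the third array of culture 1. Without that array the mean was −0.44 and *HAC1* no longer met the criterion, though it was still lower on each of the other 5 arrays. The array measures the amount of *HAC1* mRNA, whereas the pathway is switched by splicing of that mRNA, and whether the probe reads the spliced form, the unspliced form or both was not tested.

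*IRE1*, the sensor that splices *HAC1*, had −0.13, −0.07 and −0.13 in culture 1 and −0.02, 0.20 and 0.12 in culture 2. The culture means of −0.11 and 0.10 cancelled. The difference between the cultures, 0.21, had an adjusted p of 0.120 over the technical arrays.

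Of the oligosaccharyltransferase subunits among the members, 4 of 6 were higher on all 6 arrays, as were 23.6% of all genes with 6 values. *STT3*, the catalytic subunit that transfers the glycan to asparagine, had 0.42, 0.57 and 0.63 in culture 1 and 0.61, 0.31 and 0.54 in culture 2 (mean 0.51 with a standard error of 0.12, adjusted p = 0.0662). The values of the cultures overlapped, and after *SIL1* this was the highest mean among the members. *WBP1*, an essential subunit, had culture means of 0.59 and 0.39 (adjusted p = 0.0775), *OST1* had 0.52 and 0.26 (adjusted p = 0.125), and *SWP1* 0.21 and 0.30 (adjusted p = 0.217).

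The remaining subunits of the enzyme did not share this. *OST4*, *OST5* and *OST6*, which belong to the related genes examined below, were above 0 on 5, 3 and 3 of the 6 arrays. *OST2* had culture means of −0.06 and 0.15. *OST3*, a subunit with a thioredoxin fold, had 0.06, 0.06 and 0.07 in culture 1 and −0.41, −0.04 and −0.22 in culture 2. Each array of culture 1 was thus above 0 and each of culture 2 below it, and the difference between the cultures was −0.29 (adjusted p = 0.0823 from limma over the technical arrays).

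Among the ERAD genes, no gene met the criterion and neither ubiquitin ligase gene had an unadjusted p below 0.05. *HRD1*, the ligase for misfolded lumenal and membrane proteins, had 0.20, 0.25 and 0.31 in culture 1 and −0.03, 0.00 and −0.14 in culture 2. The cultures did not overlap, and the mean was 0.10 (adjusted p = 0.661). *SSM4*, which encodes the other ligase, Doa10, was lower on all 6 arrays, with −0.26, −0.27 and −0.23 in culture 1 and −0.21, −0.03 and −0.03 in culture 2 (mean −0.17, adjusted p = 0.392).

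The partners of Hrd1 that receive its substrates had small positive means. *HRD3*, the partner that holds Hrd1 stable, had culture means of 0.38 and 0.32 (adjusted p = 0.127), and *YOS9*, the lectin that reads the glycans of misfolded proteins, had 0.31 and 0.28 (adjusted p = 0.170). Both were higher on all 6 arrays with an unadjusted p below 0.05. *DER1*, a membrane protein of the same complex, stayed near 0, with 0.02, −0.11 and −0.002 in culture 1 and 0.03, −0.02 and −0.14 in culture 2. Its paralog *DFM1* had culture means of 0.10 and 0.27.

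The ubiquitin-conjugating enzymes of the pathway differed from each other. *UBC6*, a tail-anchored enzyme that works with Doa10, had 0.22, 0.39 and 0.51 in culture 1 and 0.53, 0.18 and 0.40 in culture 2 (mean 0.37, adjusted p = 0.110), the highest of the ERAD genes. *UBC7* had culture means of 0.02 and 0.03, and *CUE1*, which anchors Ubc7 at the membrane, had 0.11 and 0.31 and was higher on all 6 arrays.

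The cultures were then compared with each other by limma over their technical arrays, 3 against 3. This contrasts the 2 cultures, not a condition, because isotope label and culture change together. No member differed above 1.5-fold, whereas 7.35% of all genes compared differed by that much with an adjusted p below 0.05. At any fold, 4 members had an adjusted p below 0.05, against 22.3% of all genes, and 8 an unadjusted p below 0.05, against 37.5%. The 4 were all higher in culture 1, namely *JEM1* (culture 2 minus culture 1, −0.45; adjusted p = 0.0304), *ERO1* (−0.44; adjusted p = 0.0247), *HRD1* (−0.31; adjusted p = 0.0335) and *SIL1* (−0.30; adjusted p = 0.0322). Over all genes, too, the ratios were spread more widely on the arrays of culture 1 (SD 0.52 to 0.61) than on those of culture 2 (0.40 to 0.45). The largest difference among the members was that of *HAC1* (0.58), with an adjusted p of 0.160 and an SD of 0.68 among the arrays of culture 1. For comparison, the SD among the arrays of a culture had a median over the members of 0.11 in either culture.

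**Figure D3:**
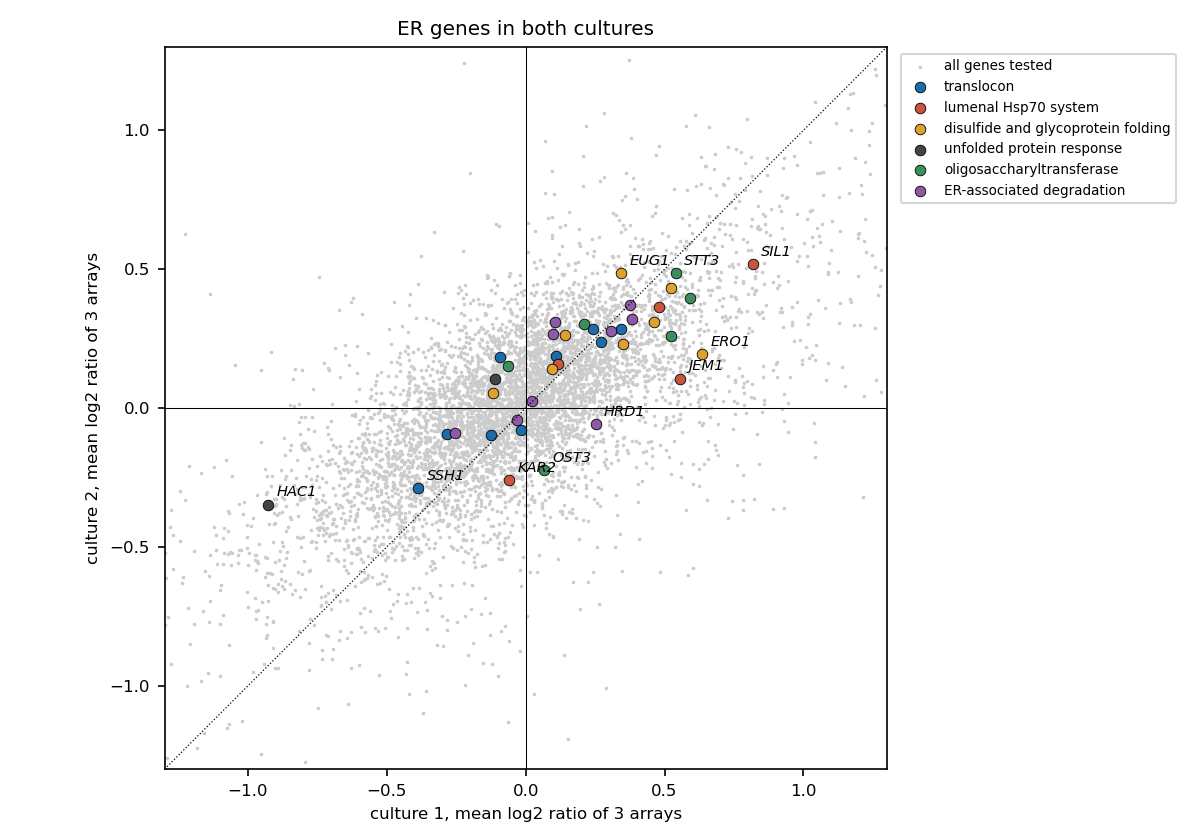
Mean log2 ratio of 3 arrays in culture 1 (x axis) and in culture 2 (y axis). Colored points are the 39 members by role, gray points are the genes tested, without the 208 that lie beyond 1.3 on either axis, and the dotted line marks equal values. *SIL1*, *ERO1*, *JEM1* and *HRD1* lie below the line, and *HAC1* lies apart at the lower left.

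To see whether neighboring steps of the pathway looked alike, 61 further genes in 8 lists were examined. The products of some of them act in the cytosol rather than in the ER. Their medians were 0.07 (culture 1) and 0.12 (culture 2), and 34 of 61 (55.7%) were higher in both cultures, against 37.0% of all genes. By the same criterion, which 10.5% of all genes met, 2 of the 61 changed. *SGT2*, which hands tail-anchored proteins to the Get pathway in the cytosol, rose by 0.60 on the log2 scale (0.65 in culture 1 and 0.55 in culture 2, adjusted p = 0.0533) and was higher on all 6 arrays. *ALG14*, part of the enzyme that adds the second sugar to the lipid-linked glycan, had a mean log2 ratio of −0.76 (−0.92 and −0.60, adjusted p = 0.0445), the only related gene past the adjusted threshold. Its adjusted p was 0.0960 after median centering of the arrays. *SGT2* met the unadjusted criterion under 10 of 13 alternatives and *ALG14* under all 13.

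Steps that flank the members were mixed. Of 12 genes of signal recognition and signal peptidase, 1 was higher (*SEC11*, mean 0.33) and 3 were lower (*SPC1*, −0.39, *SPC2*, −0.34, and *SRP68*, −0.30) with an unadjusted p below 0.05. Among all genes tested, 14.0% were higher and 15.2% lower at that p. Counts in lists this short therefore describe no trait of a list. *SEC11* is the catalytic subunit of signal peptidase, and *SPC1* and *SPC2* are its small accessory subunits. The 16 genes of glycan assembly had a median of 0.16, and besides *ALG14* the furthest from 0 was *ALG12* (0.60 in culture 1 and 0.45 in culture 2), a mannosyltransferase of the ER lumen. None of the 6 O-mannosyltransferases and none of 3 further oligosaccharyltransferase subunits had an unadjusted p below 0.05 in limma. Of the 8 genes for extraction and delivery to the proteasome, *UFD1*, a cofactor of Cdc48, was lower on all 6 arrays (−0.30 and −0.86) and the only one with an unadjusted p below 0.05. Its arrays in culture 2 were far apart, at −1.29, −0.17 and −1.11 (SD 0.60). *CDC48* was higher on all 6 arrays (0.27 and 0.17).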

How the data were processed

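mRNA ratios were measured on 6 arrays (CodeLink slides) that carried treated and untreated cDNA in different dyes, 3 technical arrays for each of 2 cultures. LOWESS normalization was done by the authors in GeneSpring GX, and the deposited table holds 1 log2 ratio per ORF and array. Scale and direction are not stated with the values. The log2 scale was inferred from the lowest value, −6.64, which occurs 10 times, and the direction from the sample titles. Background correction was not given in the sources used here, and no signal intensities were analysed, so the number of cultures and arrays limits the precision (6180 to 6353 values each, medians −0.03 to 0.02).

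Row names were matched to the locus tags of RefSeq R64 (5840 of 6377 matched). Arrays were averaged by culture, and limma tested the 2 means of each gene against 0 (version 3.58.1, R 4.3.3; 6290 genes), with Benjamini-Hochberg adjustment over all of them. Cultures were compared over technical arrays for 6241 genes with at least 2 values in each. Tests were two-sided. The spread of each gene between the 2 cultures was moderated by that of all genes (4.29 prior degrees of freedom), so that the p-values rest largely on the pooled spread. The fits were tested on simulated data. Probe, promoter and protein sequences were not used here.

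All 39 members are named. Array values are given for members past the criterion, the highest and lowest of each role and *KAR2*, *PDI1*, *ERO1*, *HAC1*, *IRE1*, *SEC61*, *HRD1* and *DER1*. The array values of *JEM1*, and the related genes named without meeting the criterion, were chosen after their values had been seen. Members and related lists were chosen with earlier results of these data known. Alternatives covered the thresholds, the replicate unit, centering, scale and quantile normalization, missing values, averaging, and each culture and array left out. SILAC data were not analysed here.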

Additional observations from a re-analysis of the deposited data

Results flagged for a closer look

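In 2 of the 39 genes, 1 array stood apart from the other 5, close to the 1 in 20 sets of independent values that chance flags. Arrays of a culture were correlated (consensus correlation 0.41), so that rate need not hold here. *HAC1* had a log2 ratio of −1.71 on the third array of culture 1, against −0.59 on the next lowest array. *HRD3* had 0.20 on the first array of culture 2, against 0.36 on the next. Between the cultures, 4 genes had different ratios by limma over the technical arrays, with culture 2 lower than culture 1 by a log2 difference of −0.30 for *SIL1*, −0.45 for *JEM1*, −0.44 for *ERO1* and −0.31 for *HRD1*. The cause of these differences was not tested.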

How the results depend on the processing

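All alternatives are listed in the processing notes, and the recount of higher members was added after the data had been seen. The number of members changed (2) was 0 with the adjusted p, 0 at 2-fold and 15 without a fold threshold. It was 1 after scale normalization and 1 with the median of a culture's arrays, as *HAC1* then missed the 1.5-fold threshold (−0.58 and −0.49). With a culture or an array left out it ranged from 0 to 4. *HAC1* was lost without the third array of culture 1. In a single culture, counted by fold without a test, no member passed in culture 2 (*SIL1* at 0.52) and 4 did in culture 1 (*SIL1*, *ERO1*, *WBP1* and *HAC1*). Ratios of all genes were spread more widely in culture 1 (array SD 0.52 to 0.61) than in culture 2 (0.40 to 0.45). The share of all genes past 1.5-fold in a single culture was not counted, so these counts describe no trait of the members. The median log2 ratio of the members ranged from 0.14 to 0.22 with a culture or an array left out and from 0.20 to 0.22 under the other normalizations. The number higher with an unadjusted p below 0.05 (13) was 24 with the 6 arrays as replicates and 9 to 15 with an array left out. The number that differed between the cultures (0) was 4 without the fold threshold and 0 under the other alternatives. Members close to 0 changed sign, *ROT1* to 0.016 with the median of a culture's arrays (−0.118 to 0.055 with a culture or array left out), *IRE1* to 0.016 and 0.014 after scale and quantile normalization (−0.11 to 0.10) and *OST2* between −0.0627 and 0.151. With culture 2 left out *SEC72* was at −0.09 and *OST3* at 0.07, and with culture 1 left out *HRD1* was at −0.06. With median centering *SIL1* had an adjusted p of 0.108. The number of cultures (2) and the unknown signal over background limit what could be detected.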
